A study of Mus musculus with 6 samples.

Results

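Aminoacyl-tRNA synthetases are the enzymes that join each amino acid to its transfer RNA. They were followed here in primary mouse dermal fibroblasts with and without endothelin 1 (Et1), a peptide hormone best known for constricting blood vessels. The family was defined by name as 36 genes, and a gene was represented by its brightest probe set (the group of short probes that reads 1 transcript) over the 6 arrays, among probe sets annotated with that gene alone. This gave 35 genes of the 18193 with such a probe set, 19 of them cytosolic and 16 mitochondrial. The expression of Dars, the cytosolic enzyme for aspartate, was not analysed here.

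Cells were grown out of the skin of B6 pups of mixed sex, aged 0 to 2 days per the sample labels and 0 to 3 days per the design text. They were used at passage 6 per the labels, while the design text places the split into treated and control cultures by passage 5. The 3 control cultures received nothing, and the 3 Et1 cultures received 100 nM of synthetic Et1 peptide for 24 hours. Cultures of both groups shared the same medium, with high glucose, L-glutamine and serum, and RNA was read on Affymetrix Mouse430_2 arrays. The labels call the arrays biological replicates without naming the animals, so the p-values measure the spread between these arrays, which may be technical in part. With 3 arrays in each group, array number sets how precise any value can be.

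Every protein chain is built from amino acids that a synthetase has attached to the matching transfer RNA. Cytosolic synthetases serve the ribosomes of the cytosol, and several of them sit together in the multisynthetase complex, held by the scaffold proteins Aimp1, Aimp2 and Eef1e1. A separate set, encoded in the nucleus and imported, serves the mitochondrial ribosomes. When amino acids run short or protein folding is disturbed, the transcription factor ATF4 is known to raise the transcripts of many cytosolic synthetases, of amino acid transporters and of enzymes that make amino acids.

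Deposited signals were scaled to a common level on every array, since their trimmed means ran from 91.7 to 179. Values below are these scaled signals, which have no natural unit and cannot be compared between genes. Of the 10 fibroblast markers, 9 lay above the filter on low signals (a mean of 41.0), and their summed signal was 24135 to 38892 in the controls and 18598 to 31511 with Et1. Of the 9, 7 had lower means with Et1, with a median log2 difference of -0.50; Col3a1, Thy1 and Pdgfrb, at -1.26, -1.18 and -1.14, had an unadjusted p under 0.05 by limma, and 0 passed. The 3 mural or smooth muscle markers, Myh11, Rgs5 and Cnn1, all lay above the filter, and their summed signal was 1833 to 2491 in the controls and 836 to 1158 with Et1. Of these 3, 2 had lower means with Et1 and 1 had a higher one, with log2 differences from -1.16 to 0.07. The Schwann cell markers with a probe set, Sox10 and S100b (2 of 4), summed to 175 to 191 in the controls and 109 to 131 with Et1. The mural and Schwann sums did not overlap between the groups. The part of these and of the fibroblast markers in the synthetase results was not tested. Summed signals of the keratinocyte, endothelial, macrophage, melanocyte, skeletal muscle and adipocyte markers overlapped between the groups. Pecam1, Krt1 and Mlana, the dimmest endothelial, keratinocyte and melanocyte markers, had mean signals of 7.66, 7.03 and 2.84. The brightest markers of these 3 lists had 49.3, 180 and 57.1. Above the filter lay 2 of 4 endothelial, 4 of 6 keratinocyte, 3 of 4 melanocyte and 3 of 4 macrophage markers. In such bulk samples fewer cells of a type and less RNA per cell cannot be told apart.

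The arrays also fell into 2 sets by the mean log2 signal of 27 probe sets for Bacillus transcripts, which can be added to RNA as spike-in controls. It was 3.45 to 3.57 on a low set, which holds controls 1 and 2 with Et1 array 2. It was 4.75 to 5.64 on a high set, which holds Et1 arrays 1 and 3 with control 3. Several synthetases differed between these sets, so values within each set stand beside the results.

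The comparison of Et1 with control asked which synthetase transcripts differ after a day of Et1. Wars, the cytosolic enzyme for tryptophan, rose 2.22-fold and was the only synthetase to pass the test over all probe sets. Of the 19 cytosolic genes 17 had higher means in Et1 cultures, with Rars, Lars, Sars and Nars next in size at log2 differences of 1.04 to 0.70. Of the 15 mitochondrial genes tested, 12 had higher means, by at most 0.50 on the log2 scale, and 0 passed. No member of either class passed in the lower direction.

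With limma and Benjamini-Hochberg adjustment over 22519 probe sets at 0.05, the calls were thus 1 of 19 cytosolic genes higher and 0 lower. Over all 11666 genes tested, each by its brightest tested probe set, 0.137% were called higher and 0.274% lower; over all probe sets it was 0.0977% and 0.249%. At an unadjusted p under 0.05, 12 of the 19 cytosolic genes were higher and 0 lower, against 6.93% and 6.53% of all genes. The 3 Et1 signals lay above the 3 control signals for 11 of the 19, against 10.7% of all genes, and below them for 0, against 8.49%. The median log2 fold change was 0.42 for the cytosolic class and 0.05 for all genes tested.

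**Figure D1:**
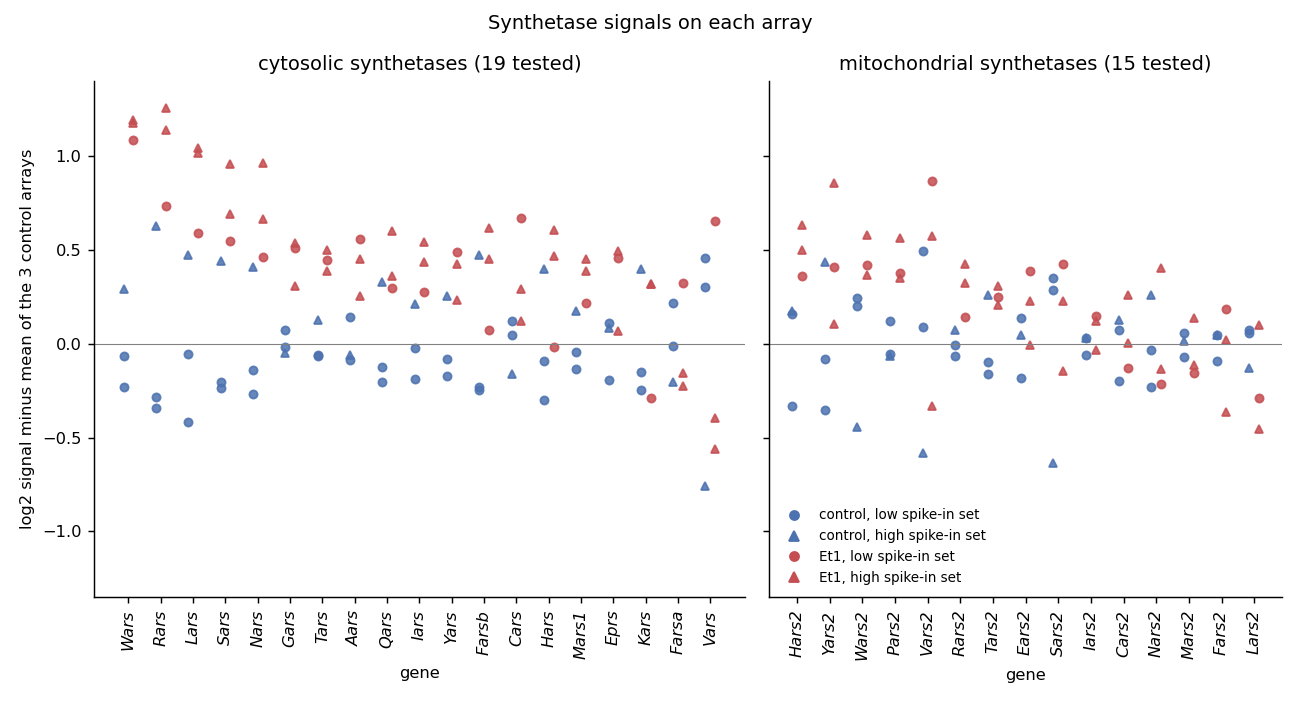
Log2 signal of each tested synthetase minus its mean over the 3 control arrays (vertical axis), by gene (horizontal axis), for control (blue) and Et1 (red) arrays, with circles for the low and triangles for the high spike-in set. Wars has its Et1 points clear of the controls, while for Rars, Lars, Sars and Nars the control of the high set lies nearer to the Et1 arrays than the other controls do.

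Wars is also known as a gene that interferon raises. Its scaled signals were 372, 417 and 535 in control replicates 1, 2 and 3 and 985, 925 and 997 in the Et1 replicates. All Et1 arrays lay above all controls by a wide margin, with group means of 441 ± 83.9 and 969 ± 38.9 (SD, n = 3). The log2 fold change was 1.15 (SE 0.17, 95% interval 0.77 to 1.53, limma adjusted p = 0.0391).

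All 4 tested probe sets of Wars pointed the same way, and in each of them the groups did not overlap. Their log2 fold changes were 1.15, 0.93, 0.93 and 0.59. The brightest probe set is of the _x_at kind, whose probes may also match other transcripts, and without such probe sets the value was 0.93 (limma adjusted p = 0.0545). The change within the low spike-in set was 1.23, and within the high set 0.89.

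The call of Wars rested on every array but 1. Its limma adjusted p was 0.219 when control replicate 1 was left out and 0.207 when control replicate 2 was. Leaving out an Et1 array gave a limma adjusted p of 0.162 for replicate 1, 0.0521 for replicate 2 and 0.202 for replicate 3. In each of these 5 fits 0 of the 19 cytosolic genes were called. Without control replicate 3 it was 0.0174, and 4 cytosolic genes, Wars, Rars, Lars and Sars, were called higher. The share of all genes called in that fit is not given here, so the count of 4 lacks a background. Over all 16 other settings the adjusted p of Wars ran from 0.00236 to 0.219, and its log2 fold change from 0.90 to 1.30.

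**Figure D2:**
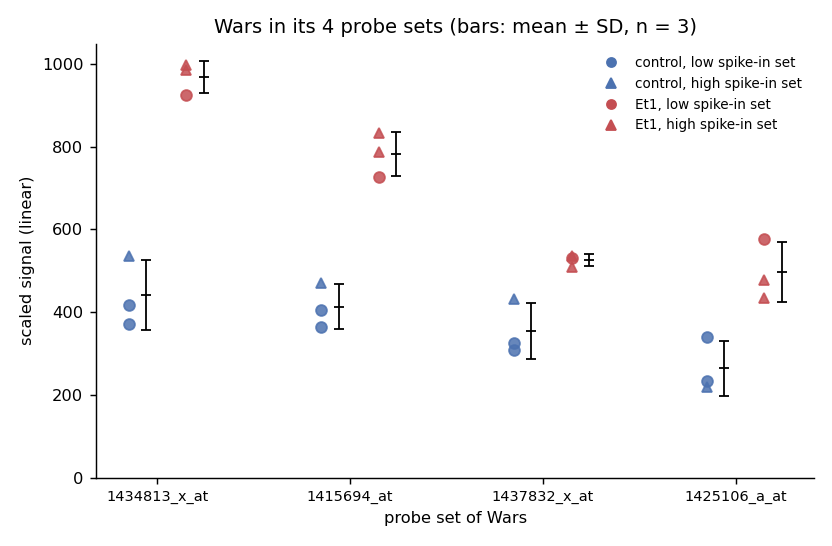
Scaled linear signal (vertical axis) of the 4 Wars probe sets (horizontal axis) on each array, with bars for the mean ± SD of the 3 arrays per group. In every probe set all Et1 points lie above all control points; in the brightest one the means are 441 and 969.

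Rars charges the transfer RNA for arginine and is part of the multisynthetase complex. Its signals were 840, 878 and 1649 in the control replicates and 2546, 1776 and 2348 in the Et1 replicates. The groups did not overlap, but control replicate 3 stood close to Et1 replicate 2. The log2 fold change was 1.04 (SE 0.27, 95% interval 0.43 to 1.65), which did not pass (limma adjusted p = 0.159).

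Lars, for leucine, is a complex member known also as a leucine sensor in growth control. Its signals were 522, 671 and 966 in the controls and 1411, 1047 and 1438 with Et1, again with control replicate 3 nearest to the Et1 arrays. The log2 fold change was 0.88 (SE 0.24, limma adjusted p = 0.180).

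Sars, for serine, and Nars, for asparagine, work outside the complex. Sars read 1189, 1219 and 1905 in the controls and 2729, 2049 and 2263 with Et1, a log2 difference of 0.73 (limma adjusted p = 0.204). Nars read 2084, 2274 and 3339 in the controls and 4889, 3461 and 3980 with Et1, a log2 difference of 0.70 (limma adjusted p = 0.219). For both genes the lowest Et1 array was only a little above control replicate 3, and the other tested probe set gave 0.81 for Sars and 0.76 for Nars.

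Gars, Tars, Aars, Iars and Mars1 had smaller differences, with no overlap between the groups in their brightest probe sets. Gars, the enzyme for glycine, makes both the cytosolic and the mitochondrial form from 1 gene. It read 1697, 1806 and 1660 in the controls and 2494, 2450 and 2128 with Et1, and at a log2 fold change of 0.45 its SE of 0.13 was the smallest in the family (limma adjusted p = 0.199). Unlike Rars or Lars, its 3 controls lay close together.

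Tars, for threonine, read 981, 979 and 1117 in the controls and 1445, 1395 and 1337 with Et1 (log2 fold change 0.44, limma adjusted p = 0.219). Aars, for alanine, read 1314, 1539 and 1337 in the controls and 1906, 2049 and 1658 with Et1 (log2 fold change 0.42, limma adjusted p = 0.275). The gap between the groups was wider than the spread of the controls in Tars and narrower in Aars. In the other tested probe set of Aars, also at 0.42, the groups overlapped. Iars, for isoleucine and in the complex, read 967, 1082 and 1274 in the controls and 1602, 1332 and 1491 with Et1, a log2 fold change of 0.42.

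Mars1, the complex member for methionine, which also starts every cytosolic protein chain, read 655, 698 and 812 in the controls and 982, 835 and 939 with Et1 (log2 fold change 0.35). Qars, the complex member for glutamine, read 699, 740 and 1014 in the controls and 1035, 992 and 1222 with Et1 (log2 fold change 0.42). Yars, for tyrosine, read 384, 410 and 516 in the controls and 509, 608 and 581 with Et1 (log2 fold change 0.38). Control replicate 3 overlapped the Et1 arrays for Qars and Yars, and of the 3 genes none passed (limma adjusted p = 0.390 to 0.405).

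The other 7 cytosolic genes had an unadjusted p over 0.05 and log2 fold changes from -0.10 to 0.38. Farsb, a subunit of the phenylalanine enzyme, stood at 0.38, Cars, for cysteine, at 0.36, Hars, for histidine, at 0.35, and Eprs, which carries the activities for glutamate and proline in 1 protein, at 0.34. Of these, Cars had no overlap between its groups, but its highest control, at 776.5, was almost level with its lowest Et1 array, at 777.2. Kars, for lysine in both compartments, stood at 0.12, Farsa, the other phenylalanine subunit, at -0.02 and Vars, for valine, at -0.10. The sign of Kars, Farsa and Vars changed in 2, 5 and 5 of the 16 other settings, and that of Cars in 1, the mean of its probe sets, at -0.34.

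Vars, singled out after its values were seen, had the largest SE of the cytosolic genes on the log2 scale, at 0.39. It read 667, 600 and 288 in the controls and 330, 765 and 370 with Et1. The 3 arrays of the high spike-in set were the 3 lowest, in both groups. Within each set Et1 was above control, by 0.27 in the low and 0.28 in the high set.

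**Figure D3:**
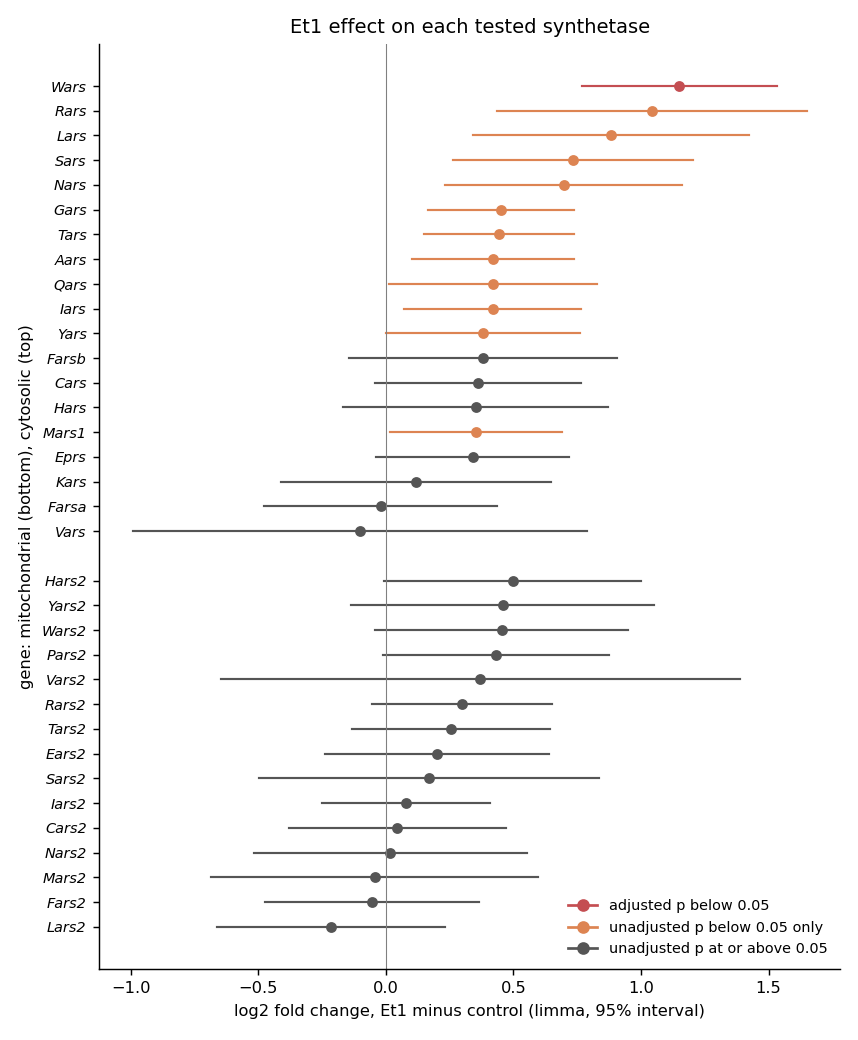
Log2 fold change of Et1 minus control with its 95% interval from limma (horizontal axis) for the 34 tested synthetases (vertical axis), cytosolic above and mitochondrial below. Wars alone passes the adjusted threshold, 11 further cytosolic genes have an unadjusted p under 0.05, and no mitochondrial gene does.

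With the group in the fit, 8 of the 19 cytosolic synthetases differed between the spike-in sets by limma. So did 1 of the 15 mitochondrial synthetases and 2022 of all 11666 genes tested. Control replicate 3 was the highest of the 3 controls for 13 of the 19, against 41.3% of all genes tested. In that fit the high set stood above the low set by a median of 0.27 on the log2 scale over the 19, against 0.04 over all genes. This difference was 0.70 for Rars, 0.57 for Lars, 0.60 for Kars and -1.13 for Vars, and it was 0.27 for Wars and -0.08 for Gars.

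Within both sets Et1 was above control for 18 of the 19 cytosolic genes, against 37% of all genes, and Kars was the exception at -0.09 and -0.08. Inside the low set the cytosolic median was 0.50; this set holds 1 Et1 and 2 control arrays. Inside the high set, with 2 Et1 arrays and 1 control, it was 0.28. Rars stood at 1.05 and 0.57, Lars at 0.82 and 0.56, Sars at 0.77 and 0.38, and Nars at 0.67 and 0.40. Gars, at 0.48 and 0.47, differed least between the sets among these.

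With the set as a block in limma, 7 of the 19 cytosolic genes passed as higher and 0 as lower, against 1.75% and 2.72% of all genes. They were Wars at 1.06 (limma adjusted p = 0.00236), Rars at 0.81 (limma adjusted p = 0.00856), Lars at 0.69, Sars at 0.58, Nars at 0.54, Gars at 0.48 and Cars at 0.48. Aars just missed at 0.47 (limma adjusted p = 0.0509), as did Tars at 0.41 (limma adjusted p = 0.0543). Of the 15 mitochondrial genes 0 passed in this fit. The sets were known from earlier results of these data and not from the labels.

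**Figure D4:**
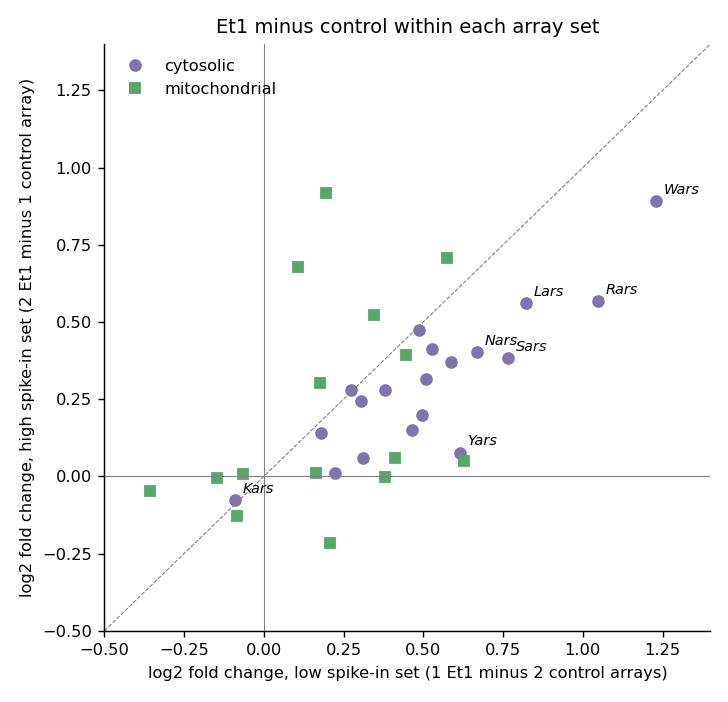
Log2 fold change of Et1 minus control within the low (horizontal axis) and within the high spike-in set (vertical axis), 1 point per tested synthetase; the dashed line marks equal values. Of the 19 cytosolic points 18 lie above 0 on both axes, mostly below the line, and the mitochondrial points scatter around and above 0.

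By place in the cell, the 7 tested synthetases of the multisynthetase complex all had higher means after Et1. Their median log2 difference was 0.42, and 0 passed the threshold by limma (5 at an unadjusted p under 0.05). The 12 tested cytosolic enzymes outside the complex had a median of 0.40, with 10 higher means and 1 call, Wars. By catalytic fold, the 9 class I enzymes had a median of 0.42 and the 9 class II enzymes one of 0.42, with Eprs, which holds both, left out. Differences between these subgroups were not tested.

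The scaffold proteins of the complex also had higher means, and 0 of 3 passed. Their median was 0.45, with 0.43 within the low and 0.19 within the high set. Leaving out control 1, 2 or 3 gave 0.34, 0.35 and 0.68, and the spike-in set as a block gave 0.32. Aimp2 had a log2 fold change of 0.53, Eef1e1 one of 0.45 and Aimp1 one of 0.42. Aimp1, the only one with no overlap between the groups, went from 717 ± 128 to 948 ± 65.6 (SD, n = 3).

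Promoter windows were read because most cytosolic members had higher means together and because ATF4 is known to bind a short composite element, TGATGNAA on either strand. RefSeq windows of 300 bases (GRCm38.p6), from 250 before to 50 after an annotated transcript start, were on hand for 13 cytosolic members, Dars included, and 14 mitochondrial members. The letters stood in 5 of the 13 cytosolic windows and in 0 of the 15 mitochondrial windows, against 3.97% of all 32851 windows. The stricter TGATGCAA, contained in the first, stood in 4 and 0 of them, against 0.895% of all. The 5 windows are those of Aars, Gars, Iars, Tars and Yars, whose log2 fold changes lay between 0.38 and 0.45. Below, 170 bases before and 30 from the start are shown with the match in capitals (as its reverse complement where it lies on the other strand), since these members share the letters; Sars, with a larger difference and no match, is shown for contrast.
Aars, chr8:111033672-111033871, plus strand: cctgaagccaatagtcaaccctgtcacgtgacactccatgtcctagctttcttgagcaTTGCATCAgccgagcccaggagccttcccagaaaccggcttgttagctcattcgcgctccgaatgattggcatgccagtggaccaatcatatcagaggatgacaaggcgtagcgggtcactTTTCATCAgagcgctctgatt
Gars, chr6:55037831-55038030, plus strand: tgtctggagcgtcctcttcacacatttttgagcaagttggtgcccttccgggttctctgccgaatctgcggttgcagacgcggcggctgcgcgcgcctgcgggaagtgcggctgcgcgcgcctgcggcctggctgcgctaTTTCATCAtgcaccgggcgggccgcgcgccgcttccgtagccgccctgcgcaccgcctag
Iars, chr13:49681960-49682159, plus strand: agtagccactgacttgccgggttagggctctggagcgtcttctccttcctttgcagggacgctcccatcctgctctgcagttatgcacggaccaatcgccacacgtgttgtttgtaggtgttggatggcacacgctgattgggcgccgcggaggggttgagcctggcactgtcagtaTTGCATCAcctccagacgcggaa
Tars, chr15:11399629-11399828, minus strand: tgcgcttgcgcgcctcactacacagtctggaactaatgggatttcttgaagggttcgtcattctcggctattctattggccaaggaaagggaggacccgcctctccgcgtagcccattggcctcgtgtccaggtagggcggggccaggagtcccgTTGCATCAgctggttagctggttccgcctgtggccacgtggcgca
Yars, chr4:129189733-129189932, plus strand: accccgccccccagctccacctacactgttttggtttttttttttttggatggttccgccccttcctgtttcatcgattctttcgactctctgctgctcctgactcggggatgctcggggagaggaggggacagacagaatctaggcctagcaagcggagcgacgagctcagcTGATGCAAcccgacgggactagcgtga
Sars, chr3:108445230-108445429, minus strand: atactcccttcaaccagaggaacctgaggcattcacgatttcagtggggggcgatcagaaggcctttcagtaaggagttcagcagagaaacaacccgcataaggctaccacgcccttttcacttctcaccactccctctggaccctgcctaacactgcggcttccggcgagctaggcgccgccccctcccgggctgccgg

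The first base of the match stood 15 before the start in Tars, 30 before it in Gars, 3 after it in Yars and 7 after it in Iars. Aars held 1 match 112 before the start and another 9 after it. A match is a description of the letters, and no binding was measured. Among members with a window and a value, Sars had the largest difference, 0.73, and no match, followed by Gars, Tars and Aars, which had a match. Qars, with no match, stood at 0.42, level with the matched Aars and Iars. Farsb, with no match, stood at 0.38, level with the matched Yars. Of the other unmatched members Mars1 stood at 0.35 and Eprs at 0.34, and Kars, at 0.12, and Farsa, at -0.02, had the lowest values. Apart from these extremes, matched and unmatched members overlapped, and the contrast between them was not tested. No window was on hand for Wars, Rars, Lars, Nars, Cars, Hars or Vars. Windows were also missing for Hars2 and Pars2, which had the smallest unadjusted p of the mitochondrial class by limma.

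Mean signals of the tested mitochondrial synthetases ran from 42.4 to 308, nearer to the filter than those of the cytosolic ones, at 284 to 3338. Aars2, at a mean signal of 19.1, lay below it and was not tested. Of the 15 tested, 12 had higher means in Et1 cultures, against 55.7% of all genes, with a median log2 fold change of 0.20. By the brightest probe sets limma called 0 of them higher or lower, and at an unadjusted p under 0.05 the count was also 0. The 3 Et1 signals lay above the 3 control signals for 4 of the 15, namely Hars2, Pars2, Wars2 and Rars2, against 10.7% of all genes, and below them for 0, against 8.49%. The mitochondrial median was 0.20 within the low and 0.05 within the high set, where all genes had 0.03 and 0.04, and 9 of the 15 were above 0 in both. It was 0.13 when Et1 replicate 2 was left out.

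Hars2, for histidine, read 53.3, 74.8 and 75.7 in the controls and 94.8, 86.0 and 104 with Et1, a log2 difference of 0.50 (95% interval -0.01 to 1.00, limma adjusted p = 0.413). Pars2, for proline, read 64.7, 73.2 and 64.2 in the controls and 99.4, 87.5 and 85.9 with Et1, a log2 difference of 0.43 (limma adjusted p = 0.419). Wars2, for tryptophan, read 148, 143 and 91.7 in the controls and 186, 167 and 161 with Et1, a log2 fold change of 0.45. Control replicate 3 was the lowest array for Wars2, whose difference was 0.23 without it, and 0.20 and 0.92 inside the low and the high set.

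Rars2, for arginine, read 215, 206 and 227 in the controls and 290, 238 and 271 with Et1, a log2 difference of 0.30 (limma adjusted p = 0.482). Yars2, for tyrosine, read 136, 113 and 194 in the controls and 155, 191 and 260 with Et1, so that the groups overlapped. Its log2 fold change was 0.46 in this probe set and -0.13 in the other tested one.

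Iars2 and Rars2 were the brightest mitochondrial members. Iars2, for isoleucine, read 306, 287 and 306 in the controls and 293, 331 and 326 with Et1 (log2 fold change 0.08, 95% interval -0.25 to 0.41). Fars2, for phenylalanine and named after its values were seen, read 189, 207 and 207 in the controls and 156, 228 and 203 with Et1 (log2 fold change -0.05, 95% interval -0.47 to 0.37). In these brightest probe sets the intervals of Iars2 and Fars2 leave out a change as large as that of Wars. The other tested probe set, with lower signals, stood at 0.78 (SE 0.38) for Iars2 and at 0.47 (SE 0.35) for Fars2.

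The remaining 8 tested mitochondrial genes overlapped between the groups in their brightest probe sets. Vars2 stood at 0.37, Tars2 at 0.25, Ears2, for glutamate, at 0.20 and Sars2 at 0.17. Cars2 stood at 0.04, Nars2 at 0.02, Mars2 at -0.04 and Lars2 at -0.21. Vars2 had a mean signal of 42.4, just above the filter, and an interval from -0.65 to 1.39. The direction of Cars2 and of Nars2 changed in 5 of the 15 other settings that gave a value.

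Set side by side by amino acid, the cytosolic difference was the larger in 11 of 14 pairs, where Fars2 is paired with both Farsa and Farsb, and the median gap was 0.37 on the log2 scale. For leucine the values were 0.88 for Lars and -0.21 for Lars2, for arginine 1.04 and 0.30, for asparagine 0.70 and 0.02, and for tryptophan 1.15 and 0.45. The mitochondrial value was the larger for valine (-0.10 and 0.37), histidine (0.35 and 0.50) and tyrosine (0.38 and 0.46). The difference between the classes was not tested. The median SE was 0.18 in the cytosolic and 0.20 in the mitochondrial class.

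Of 11 mitochondrial translation factors tested, 9 had higher means, with a median of 0.21, and 0 passed (0 at an unadjusted p under 0.05 by limma). The median was 0.36 within the low and 0.06 within the high set. Leaving out control 1, 2 or 3 gave 0.13, 0.14 and 0.33, and leaving out Et1 replicate 2 gave 0.31. Gatc and Qrsl1 belong to the enzyme that turns the glutamate charged by Ears2 into glutamine, since mitochondria charge that transfer RNA indirectly. They stood at 0.35 and 0.61, with Gatb, another subunit, at 0.15, and Mrrf, a ribosome recycling factor, stood at 0.33. For Qrsl1 the groups overlapped, with 148 ± 73.3 in the controls and 218 ± 79.6 with Et1 (SD, n = 3).

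The factors that carry charged transfer RNA to the cytosolic ribosome had small differences. Of 6 elongation factor genes tested, 5 had higher means, with a median of 0.12, and 0 passed (1 at an unadjusted p under 0.05 by limma). Eef1b2, which reloads the carrier Eef1a1, went from 5048 ± 20.0 to 6007 ± 433 (SD, n = 3), a log2 fold change of 0.25. The list's median was 0.23 without control replicate 3, 0.07 without Et1 replicate 1 and 0.05 with the mean of a gene's probe sets. Eef1a1 itself stood at 0.20, Eef1d at 0.22 and Eef2, which moves the ribosome along, at 0.03.

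Among 10 tested genes of transfer RNA proofreading, processing and export, 7 had higher means, the median was 0.15 (0.10 without Et1 replicate 1), and 0 passed (3 at an unadjusted p under 0.05 by limma). Xpot, the exporter of transfer RNA from the nucleus, went from 924 ± 7.56 to 1180 ± 18.8 (SD, n = 3), a log2 difference of 0.35 (limma adjusted p = 0.291). Its groups did not overlap, and the change was 0.38 within the low and 0.35 within the high set. Trnt1, which adds the CCA end to which amino acids are joined, stood at 0.55, Rpp14 at 0.48 and Pop1, a subunit of RNase P, at -0.39.

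A wider list of 42 genes known as part of the ATF4 amino acid response was set beside the synthetases. Of 40 tested, 5 rose and 0 fell, against 0.137% and 0.274% of all genes. Means were higher for 35, against 55.7% of all genes, and the median log2 fold change was 0.60. The 5 were Slc7a3, a carrier of basic amino acids, at 1.79, Trib3, a pseudokinase of the stress response, at 1.36, the stress protein Nupr1 at 1.23, the lipoprotein receptor Vldlr at 1.21 and the mitochondrial folate enzyme Aldh1l2 at 1.03. Asns, which makes asparagine and so feeds Nars, had a log2 difference of 0.83 (limma adjusted p = 0.0503), and the transcript of Atf4 itself one of 0.51 (limma adjusted p = 0.161). Psph, the last enzyme of serine synthesis, stood at 1.08, and Slc3a2, the shared chain of several amino acid carriers, at 0.65. Other members did not rise: Slc7a5 stood at 0.02 and Slc38a2 at 0.03. Means were lower for 5 members, with Cebpb the lowest at -0.57. The list's count went to 0 without control replicate 1, control replicate 2, Et1 replicate 1 or Et1 replicate 3, to 11 without control replicate 3, and to 25 when the fit held the spike-in set as a block, against 1.75% of all genes. It was 0 with no intensity trend, 1 with median centring, 9 with the filter at the 75th percentile and 14 with the replicate number as a block. Apart from the spike-in block, the share of all genes called in these other fits is not given here, so their counts lack a background.

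Between the spike-in sets, the list's median difference of the high minus the low set was -0.08, where that of the cytosolic synthetases was 0.27 and that of the mitochondrial ones -0.01, and control replicate 3 was the highest control for 17 of its 40 genes. Its medians of Et1 minus control were 0.73 within the low and 0.58 within the high set. Trib3 stood at 1.56 and 1.26. The same letters TGATGNAA stood in 12 of 44 promoter windows of this list, against 3.97% of all windows. This contrast between the lists was not tested.

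**Figure D5:**
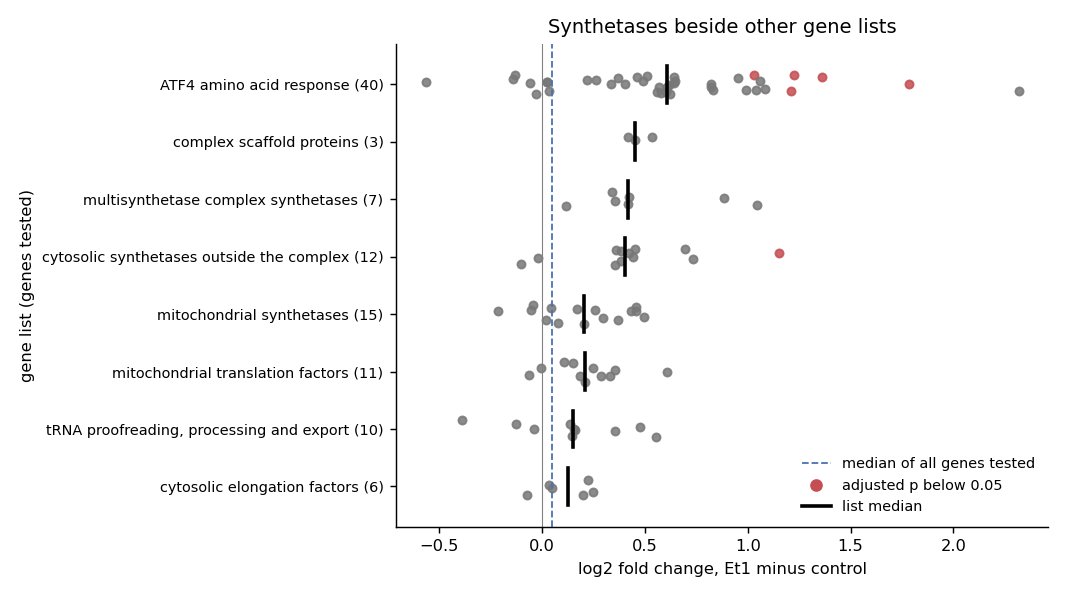
Log2 fold change of Et1 minus control (horizontal axis) for every tested gene of 8 lists (vertical axis, number tested in brackets), with black bars for list medians, red points for genes past the adjusted threshold and a dashed line for the median of all genes tested, 0.05. The medians run from 0.12 for the elongation factors to 0.60 for the ATF4 amino acid response, with both cytosolic synthetase groups at 0.40 to 0.42 and the mitochondrial ones at 0.20.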

How the data were processed

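Probe set intensity was deposited by the authors on a linear scale. The submitters' processing notes name MAS5; the version and the target of its scaling were not given in the sources used here. Each array was scaled to a 2% trimmed mean of 139, each of the 4 zeros took its array's lowest value above 0, and signals were turned to log2 with no pseudocount. Of 45037 probe sets that are not controls, the 22519 with a mean signal of at least 41.0 were tested with limma 3.58.1 in R 4.3.3 (intensity trend, no block, Benjamini-Hochberg at 0.05). Of the 45037, 34945 had 1 gene symbol, 932 several and 9160 none in the platform annotation. Groups came from the labels. Arrays carry no counts, so their number limits the precision.

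The members and lists were chosen with earlier results of these data known, so lists are described by counts and medians without a test. Values on every array are given for members past the threshold, those with an unadjusted p under 0.05, the 5 smallest p and the 2 brightest of each class; of other lists, members past the threshold and at most 4 by p, with a few named as background after their values were seen. Alternatives were quantile normalization, median centring, other filters, 50 added before log2, no trend, no _x_at or _s_at probe sets, averaging a gene's probe sets, the replicate number or the spike-in set as a block, and each array left out. On simulated data with 22519 probe sets limma called 0 of 50 planted 1.5-fold changes and 14 of 50 planted 2-fold changes.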

Additional observations from a re-analysis of the deposited data

How the results depend on the processing

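The number of cytosolic synthetases called higher, 1 in the comparison as reported, was 0 with median centring, 0 with no filter, 0 with no intensity trend and 0 without _x_at or _s_at probe sets. It was 7 when spike-in set entered as a block, and it ran from 0 to 4 when each array was left out. The cause of these shifts was not tested. The mitochondrial median of 0.20 was 0.15 with median centring, 0.28 with the filter at the 75th percentile (6 genes tested), 0.14 with 50 added before log2, and 0.13 to 0.26 when each array was left out. The cytosolic median stayed between 0.33 and 0.51 over the 16 other settings, and neither class had a member called lower in any of them.

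With the replicate number as a block, 3 cytosolic synthetases were called higher, Wars, Rars and Lars, and over all probe sets 170 were called higher and 397 lower, against 22 and 56. The numbers were not taken to pair the arrays, since deviations from the group means correlated at -0.12, 0.44 and 0.45 for numbers 1, 2 and 3, and not every array correlated best with its own number. Vars2 and Mars2, with mean signals of 42.4 and 45.3, lay nearest to the filter of 41.0.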

Other observations

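Other probe sets of the synthetases did not always follow the brightest one. The second tested probe set of Cars, the cytosolic enzyme for cysteine, read 64.1, 67.4 and 56.2 in the controls and 27.0, 51.6 and 20.0 with Et1, a log2 difference of -1.04 (limma adjusted p = 0.346). Its brightest probe set had 0.36, and the groups did not overlap in either, though in the brightest they almost touched. For Qars, 1 of 3 tested probe sets stood at -0.02 and the others at 0.46 and 0.42. For Iars2, the dimmer probe set stood at 0.78, where the brightest had 0.08. For Tars2, the other tested probe set stood at 0.59 with no overlap between the groups, where the brightest had 0.25. Its unadjusted p by limma was 0.0146 and its limma adjusted p 0.267.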
